A study of Mus musculus with 63 samples.

Results

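Macs sorted from kidneys obstructed for 7 days (UUO-7) were compared with Macs sorted after 2 days of obstruction (UUO-2), in 8 of the 63 sRNA-Seq libraries of the series. The members are every library labelled as F4/80-sorted cells at these times, 4 libraries of UUO-2 and 4 of UUO-7. All mice were male C57BL/6 aged 8 to 12 weeks, and injury was made by tying the ureter near the bladder. Macs were the CD45+ F4/80hi cells of digested kidney, sorted alongside ECs, PT cells and PDGFR-β+ cells. Sham mice and mice given 14 days of recovery after 7 days of obstruction (R-UUO) were sorted in the same way, and their Macs are given here as reference levels. Several features limit these groups as a model. Of 5 operated mice a group, the study sequenced the 4 with Havcr1, a tubular injury gene, nearest the group mean, so that 1 mouse of each group is missing. The F4/80hi gate does not separate resident from recruited cells. UUO-2 and UUO-7 are different mice, and a shared replicate number is only a name.

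Total counts were 4210819, 3910676, 4600933 and 2827701 in UUO-2 replicates 1 to 4, and 1798374, 3076036, 2057090 and 2448083 in UUO-7 replicates 2 to 5. The mean of UUO-7 minus that of UUO-2 was -1542636.5 counts (exact 2-sided permutation test, p = 0.0571, where 0.0286 is the smallest that 4 against 4 libraries allow). Without UUO-2 replicate 4 it was -1895914 (exact permutation test, p = 0.0286), and with any other library left out the exact p was 0.0571 to 0.0857. A count of 3, taken as the floor, stood for 0.583 to 0.989 CPM (counts scaled to the same total in each library) at UUO-2 and 0.859 to 1.65 CPM at UUO-7, and without molecular identifiers floors cover counting error only. The label was checked against miRNAs known from leukocytes. On a scale common to all cell types, the median level of miR-223-3p was 1951 and 1219 CPM at UUO-2 and UUO-7 in Macs, against medians of at most 37.1 CPM in the other sorted populations. The level of miR-142a-5p was 24851 and 16845 CPM in Macs, against medians of at most 283 CPM elsewhere. Another leukocyte miRNA, miR-150-5p, was higher in ECs (medians of 2799 and 2423 CPM) than in Macs (295 and 591 CPM), and so was miR-150-3p.

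miRNAs are short RNAs cut from hairpin precursors that pair with messenger RNAs, mostly through the seed at bases 2 to 8, and lower their stability and translation. In macrophages they are best known as brakes and accelerators of the inflammatory response, with miR-146 and miR-147 acting as feedback brakes on Toll-like receptor signalling and miR-155 promoting activation. In fibrotic kidney, the miR-29 family is known for targeting collagen transcripts, and miR-21, miR-199 and miR-214 for their rise in injured and scarring tissue.

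The sequences below are the mature miRNAs on which the results turn, written 5′ to 3′ with the seed in capitals. They come from RefSeq on build GRCm38.p6, where 1734 of the 2110 counted loci matched an entry by name and position and 6 more by name alone. No entry was found for 370, miR-147-3p and miR-6539 among them. The first set shares the seed of miR-29 and is shown because every tested 3p member was lower at UUO-7.
miR-29a-3p: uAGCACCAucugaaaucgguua
miR-29b-3p: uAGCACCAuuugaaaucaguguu
miR-29c-3p: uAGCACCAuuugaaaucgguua
The next sets hold seeds carried by the miR-17 to miR-92a transcript and its paralogues, shown because most of the members listed were lower while miR-93-5p, miR-92a-3p and miR-92b-3p were not. miR-25-3p and miR-363-3p, which have the seed of miR-92a-3p and are not listed, were not called.
miR-17-5p: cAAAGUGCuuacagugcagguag
miR-20a-5p: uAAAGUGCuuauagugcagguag
miR-106b-5p: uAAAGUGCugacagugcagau
miR-93-5p: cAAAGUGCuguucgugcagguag
miR-19a-3p: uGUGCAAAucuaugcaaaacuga
miR-19b-3p: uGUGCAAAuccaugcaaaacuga
miR-18a-5p: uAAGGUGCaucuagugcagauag
miR-92a-3p: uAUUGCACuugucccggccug
miR-92b-3p: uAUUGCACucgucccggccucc
miR-32-5p: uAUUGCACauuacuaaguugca
The following pairs and families share a seed although their members behaved differently.
miR-146b-5p: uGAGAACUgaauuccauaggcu
miR-146a-5p: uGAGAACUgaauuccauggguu
miR-27a-3p: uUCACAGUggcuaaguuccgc
miR-27b-3p: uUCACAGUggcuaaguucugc
miR-181a-5p: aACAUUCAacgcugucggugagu
miR-181b-5p: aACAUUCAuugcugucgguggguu
miR-181c-5p: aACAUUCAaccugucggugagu
miR-181d-5p: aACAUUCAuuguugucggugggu
let-7b-5p: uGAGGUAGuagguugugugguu
let-7c-5p: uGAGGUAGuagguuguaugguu
let-7f-5p: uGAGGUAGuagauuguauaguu
The last set has a seed of its own for each member and holds loci with large changes in either direction and abundant loci that changed.
miR-214-3p: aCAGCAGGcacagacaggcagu
miR-125b-1-3p: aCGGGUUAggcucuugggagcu
miR-184-3p: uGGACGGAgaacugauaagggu
miR-191-5p: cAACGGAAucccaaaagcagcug
miR-28a-3p: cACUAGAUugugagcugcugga
miR-101a-3p: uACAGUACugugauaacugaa
miR-3964: aUAAGGUAgaaagcacuaaa
miR-22-3p: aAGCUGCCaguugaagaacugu
miR-1247-5p: aCCCGUCCcguucguccccgga
miR-127-3p: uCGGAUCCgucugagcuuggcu
miR-541-5p: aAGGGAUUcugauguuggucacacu

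Between day 2 and day 7 of obstruction the Mac miRNA profile changed broadly and in both directions. The 3 miR-29 miRNAs fell, as did most products of the miR-17 to miR-92a transcript, miR-147-3p and miR-101a-3p. miR-146b-5p, miR-191-5p, let-7b-5p, let-7c-5p and the abundant miR-181a-5p and miR-181b-5p rose, and so did miRNAs of the Dnm3os transcript, miR-214-3p among them. Of the 2110 loci, 844 had no count in the 8 libraries and 457 passed the filter on low counts. By the quasi-likelihood test of edgeR, 74 loci were higher at UUO-7 (16.2% of those tested) and 66 were lower (14.4%), at an adjusted p (Benjamini-Hochberg) under 0.05 and a fold change above 1.5. These 140 DEmiRNA loci make up 30.6% of the loci tested, and 317 were not called. The groups did not overlap at 191 loci (41.8%), with all UUO-7 libraries above all UUO-2 libraries at 96 (21%) and below them at 95 (20.8%). The median log2 fold change was -0.0025 over all tested loci, 1.09 over those called higher and -1.14 over those called lower. At 22 tested loci the position overlapped an earlier locus or the counts were identical to it, and 72 higher and 62 lower loci were distinct in this sense. Each library is a bulk sample, so that fewer cells of a type and less RNA per cell cannot be told apart.

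**Figure D1:**
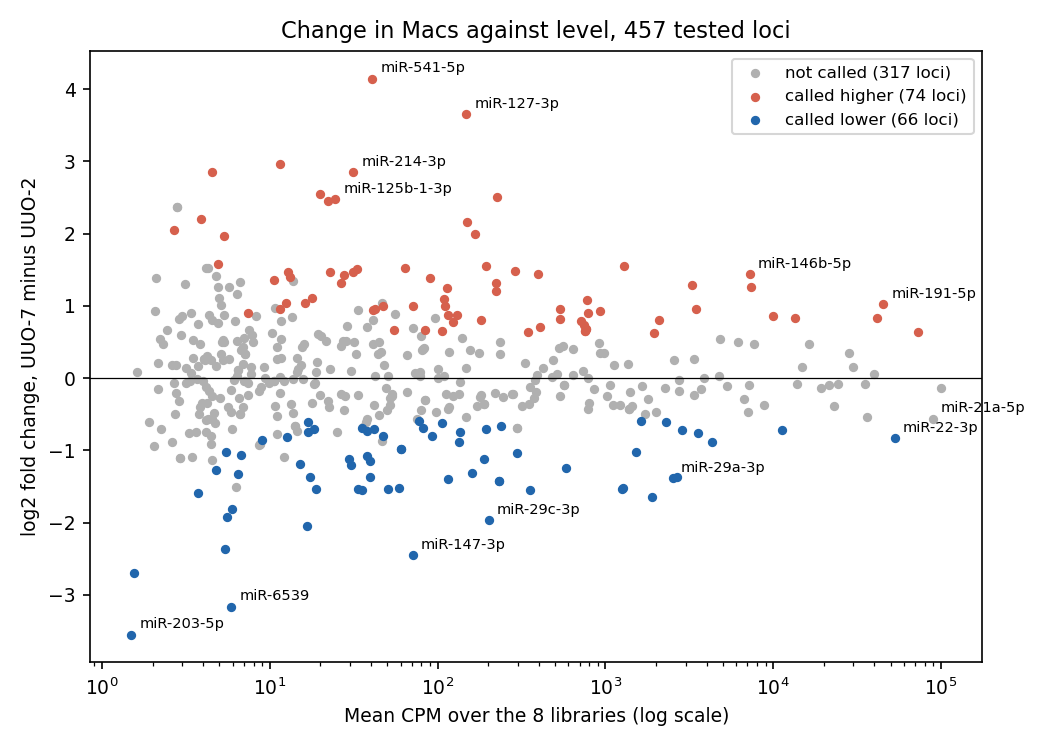
Log2 fold change from UUO-2 to UUO-7 in Macs (vertical axis) against mean CPM over the 8 libraries (horizontal axis, log scale), 1 point per tested locus, coloured by call. The 74 higher and 66 lower loci lie on both sides of 0 across the whole range of abundance, from miR-203-5p near the floor to miR-191-5p and miR-22-3p among the most abundant.

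Among the loci that rose, miR-214-3p and miR-125b-1-3p shared the smallest adjusted p. miR-214-3p (chr1:162223438-162223459, in an exon of Dnm3os) is known for its rise in fibrotic kidney. Its level was 7.77, 9.23, 5.05 and 8.57 CPM in the UUO-2 libraries and 46.6, 48.4, 61.4 and 64.4 CPM in the UUO-7 libraries. Every UUO-7 library was above every UUO-2 library by a wide margin, and the log2 fold change was 2.85 (SE 0.245, 7.23-fold, edgeR adjusted p = 3.85e-07). The 3p arm of the hairpin Mir125b-1 (chr9:41581980-41582001, in an intron of 3110039I08Rik) stood at 7.77, 8.74, 6.22 and 6.93 CPM and then 34.5, 38.4, 45.2 and 47.5 CPM. Again the groups were far apart, with a log2 fold change of 2.48 (SE 0.216, adjusted p = 3.85e-07). miR-184-3p (chr9:89802263-89802284) was measured at 44.6, 69.2, 64.3 and 41.2 CPM at UUO-2 and 225, 182, 303 and 270.4 CPM at UUO-7, a rise of 4.46-fold (log2 2.16, SE 0.264, adjusted p = 1.12e-05).

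From higher levels at UUO-2, miR-146b-5p, miR-191-5p and miR-28a-3p rose by about 2-fold to 3-fold. miR-146b-5p (chr19:46342790-46342811, in an intron of Mfsd13a), a brake on Toll-like receptor signalling, had 3910.1, 3953, 3351 and 4324 CPM at UUO-2 and 9819, 10715, 11897 and 9812 CPM at UUO-7. The lowest UUO-7 library was more than 2 times as high as the highest UUO-2 library, and the log2 fold change was 1.44 (SE 0.144, 2.72-fold, adjusted p = 1.91e-06). For miR-191-5p (chr9:108568325-108568347, in an exon of 4833445I07Rik), the levels were 31224, 30975, 28186 and 28791 CPM, against 67457, 50068, 68515 and 56601 CPM. It was among the 10 most abundant loci, and its rise of 2.04-fold (log2 1.03, SE 0.112, adjusted p = 3.24e-06) was seen in 4 of 4 UUO-7 libraries. miR-28a-3p (chr16:24827908-24827929, in an intron of Lpp) went from 116 to 143 CPM to 262 to 371 CPM (log2 1.31, adjusted p = 9.38e-06).

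By adjusted p, the miRNAs that fell were led by miR-29c-3p of the miR-29 family, whose members target collagen and other matrix transcripts. Falls of larger fold, such as that of miR-147-3p, are given further on. miR-29c-3p (chr1:195037600-195037621, in an exon of A330023F24Rik) had 330.0, 284, 357 and 308 CPM at UUO-2 and 88.3, 69.02, 81.1 and 89.02 CPM at UUO-7. Its 4 UUO-7 libraries lay close together and far below UUO-2, with a log2 fold change of -1.97 (SE 0.2, adjusted p = 1.91e-06). miR-29a-3p (chr6:31062673-31062694), the most abundant of the family, had 3750.1, 3746, 3724 and 3337 CPM and 1604, 1120.0, 1472 and 1392 CPM. The groups did not overlap, and the log2 fold change was -1.38 (SE 0.145, adjusted p = 2.15e-06). miR-29b-3p is counted at loci on chromosomes 1 and 6, which have the same mature sequence and whose reads cannot be told apart, with 83.8 to 93.4 CPM and 50.5 to 61.4 CPM at UUO-2 and 24.6 to 37.3 CPM and 13.7 to 28.5 CPM at UUO-7 (log2 -1.52 and -1.37, adjusted p = 4.08e-05 and 8.46e-05). Of the 6 miR-29 loci tested (8 in the table), 5 fell (14.4% over all loci) and none rose, with a median log2 of -1.45, beside -0.0025 over all loci. Both arms of the hairpin of miR-29a were among the 5, and the summed level of the family was 4242, 4182, 4253 and 3801 CPM at UUO-2 and 1764, 1235, 1621 and 1534 CPM at UUO-7.

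miR-147-3p (chr2:122640850-122640871, in an exon of AA467197), which is induced by Toll-like receptor signalling and limits it, had 95.9, 119, 119 and 145 CPM at UUO-2. At UUO-7 it was 21.4, 21.5, 23.1 and 21.7 CPM, nearly the same in every library and far under each UUO-2 library (log2 -2.45, SE 0.258, 5.46-fold, adjusted p = 2.15e-06). miR-101a-3p (chr4:101346957-101346977, in an exon of E130102H24Rik) had 2863, 2972, 3075 and 2561 CPM and then 986, 680.1, 983 and 1021 CPM. UUO-7 replicate 3 was lowest, but the groups were far apart without it as well, and the log2 fold change was -1.64 (SE 0.217, adjusted p = 2.63e-05). miR-27a-3p (chr8:84208727-84208747) had 3996, 3949, 4008 and 3533 CPM and 1401, 1345, 1723 and 1516 CPM (log2 -1.37, adjusted p = 5.37e-05), and miR-24-2-5p of the same cluster fell by 1.43 on the log2 scale. miR-3964 (chr15:29713337-29713356), with 23.7 to 30.01 CPM at UUO-2 and 4.296 to 7.87 CPM at UUO-7, had a log2 of -2.05 (adjusted p = 7.93e-05), which was -1.46 when a trend with GC content was removed from each library. Its mature sequence is close to that of the far more abundant miR-142a-5p, and whether their reads can be told apart was not tested. Libraries of the other sorted populations at these times had 0 to 1 reads of it.

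**Figure D2:**
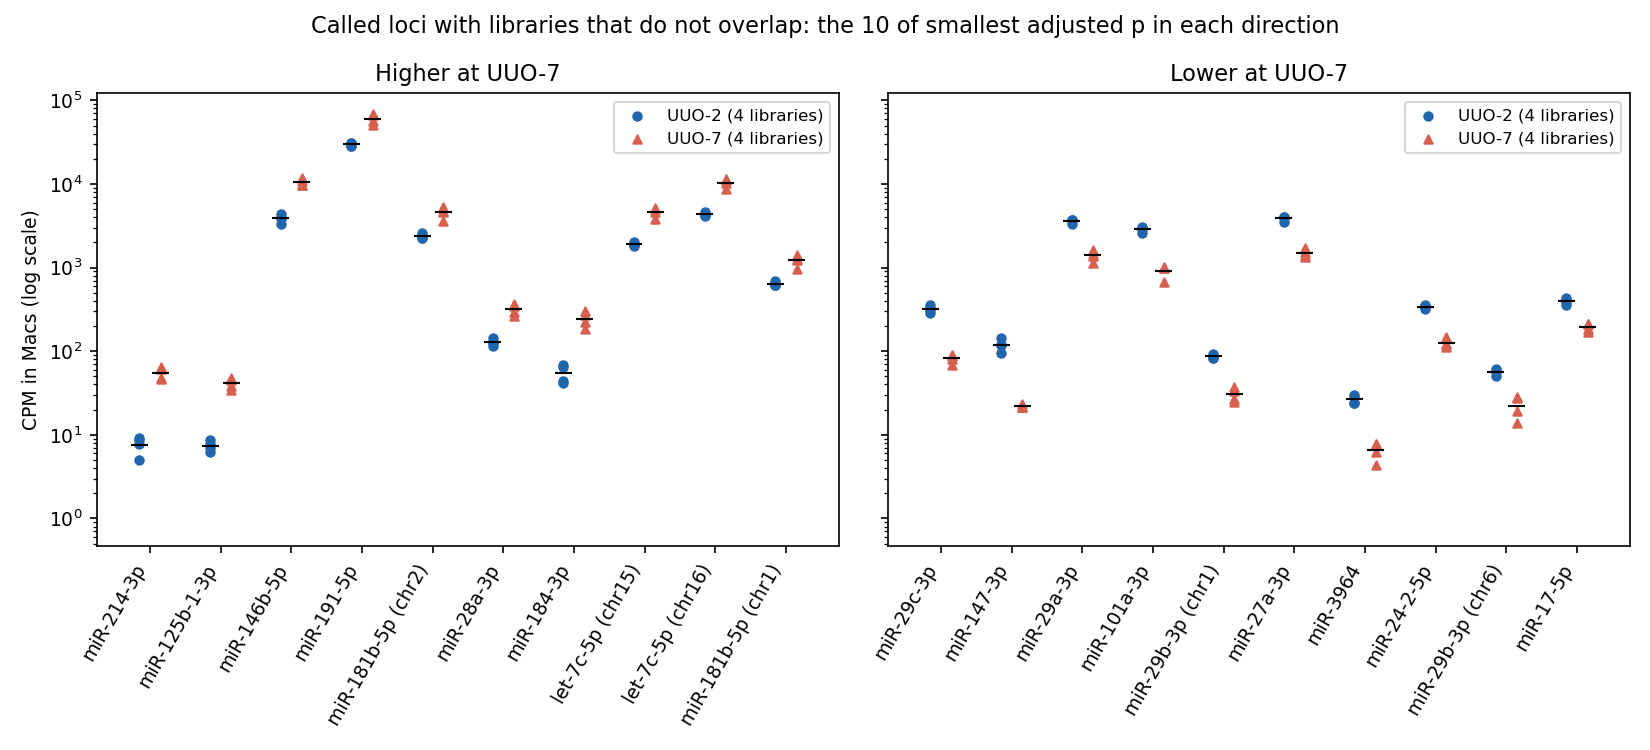
CPM in each Mac library (vertical axis, log scale) for the 10 called loci per direction with the smallest adjusted p among those whose groups do not overlap; circles are UUO-2 libraries, triangles UUO-7 libraries and bars group means. miR-214-3p went from 5.05 to 9.23 CPM up to 46.6 to 64.4 CPM, and miR-147-3p from 95.9 to 145 CPM down to 21.4 to 23.1 CPM.

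Some of the largest fold changes were found at low levels or rested on few libraries. Among the loci that fell, miR-203-5p had 47 counts over the UUO-2 libraries and 2 over the UUO-7 libraries, a ratio of 14.2 (95% exact interval 3.72 to 120, counting error only). Its call (log2 -3.55, adjusted p = 0.0203) was lost without UUO-7 replicate 3 (adjusted p = 0.0631) or replicate 4 (0.0526), its log2 was -4.14 without UUO-7 replicate 2, and it did not pass the filter without UUO-2 replicate 3. miR-6539 (chr14:67859699-67859722, in an intron of Dock5) stood at 10.2, 11.7, 8.93 and 11.9 CPM at UUO-2 and 0.548, 1.72, 0.983 and 1.104 CPM at UUO-7 (log2 -3.16, adjusted p = 0.000611). Sham Macs had 0.668 ± 0.869 CPM and R-UUO Macs 1.801 ± 1.21 CPM (SD, n = 4). miR-33-5p, which lies in an intron of Srebf2 and is known as a regulator of cholesterol efflux, had 7.101, 6.07, 11.5 and 11.5 CPM and 2.74, 0.859, 0.492 and 2.94 CPM (log2 -2.37, adjusted p = 0.00322).

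Of the 10 most abundant loci, 3 rose and 1 fell, where 16.2% of all tested loci rose and 14.4% fell. miR-181a-5p (chromosome 2) rose from 27149 to 31336 CPM to 45094 to 64457 CPM (log2 0.83, adjusted p = 4.76e-05). miR-22-3p fell from 63225 to 71575 CPM to 33946 to 42200.5 CPM (log2 -0.83, adjusted p = 0.000132). miR-10a-5p had 53251, 62990.3, 44522 and 65095 CPM and 108936, 69248, 99302 and 76012 CPM (log2 0.65, adjusted p = 0.00325). Its log2 was below the fold threshold without UUO-2 replicate 3 (0.54) or UUO-7 replicate 2 (0.52), and with no filter (0.582). miR-21a-5p, known for its rise in injured kidney, had 111489, 105229, 94361 and 114163 CPM at UUO-2 and 77414, 70532, 73264 and 67299 CPM at UUO-7. All UUO-7 libraries were below all UUO-2 libraries, but the fold change of 1.47 did not reach 1.5 (log2 -0.56, adjusted p = 0.0224). It did so without UUO-2 replicate 3 (log2 -0.62), UUO-7 replicate 2 (-0.60) or UUO-7 replicate 3 (-0.59). The same held with no filter (-0.62) and with overlapping loci left out (-0.59). The leukocyte miRNA miR-142a-5p had 39580.4 to 46178 CPM and 28586 to 31135 CPM, again without overlap and with a fold change of 1.45 (log2 -0.53, adjusted p = 0.00408). The fold change passed 1.5 without UUO-2 replicate 4 (log2 -0.65) or UUO-7 replicate 5 (-0.60), and with no filter (-0.59). For let-7f-5p (chromosome X), the log2 was -0.14 (adjusted p = 0.23), for miR-146a-5p -0.08 (0.782), for miR-92a-3p (chromosome 14) 0.05 (0.769) and for miR-26a-5p (chromosome 10) 0.16 (0.326).

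The proliferation clusters, miR-17 to miR-92a with its paralogues, are known to be driven by Myc and E2F in dividing cells. Of their 20 tested loci (30 in the table), 9 fell, 11 were not called and none rose, with a median log2 of -0.63, where 14.4% of all tested loci fell and 16.2% rose. Among the 9, miR-19b-3p is counted on chromosomes 14 and X with the same mature sequence, and its reads cannot be told apart. The same holds for miR-92a-3p among the 11. In the Mir17hg transcript itself (chr14:115043684-115044496), 7 of 11 loci fell, with a median of -0.74. miR-17-5p had 413, 432, 358 and 384 CPM and 213, 169, 185 and 209 CPM (log2 -1.03, adjusted p = 9.35e-05). miR-18a-5p had 42.9 to 62.2 CPM and 13.2 to 24.1 CPM, and with a log2 of -1.55 (adjusted p = 0.000261) it was the most changed of the cluster. miR-19a-3p (-1.39), miR-20a-5p (-1.31) and miR-19b-3p of chromosome 14 (-1.24) fell by similar amounts on the log2 scale. The calls of miR-17-3p and miR-92a-1-5p were less firm: that of miR-17-3p (log2 -0.69) was lost without UUO-2 replicate 2 (adjusted p = 0.062) or UUO-7 replicate 2 (0.0601), and that of miR-92a-1-5p (log2 -0.74) without UUO-2 replicate 1, 2 or 4 (0.0531, 0.0992 and 0.0532) or UUO-7 replicate 4 (0.0789).

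miR-92a-3p, by far the most abundant product counted at that transcript, was not part of the fall. The same mature sequence is also counted on chromosome X (log2 0.25, adjusted p = 0.124), and reads of miR-92a-3p cannot be assigned to this transcript. Its locus on chromosome 14 had 38780.4, 39620.3, 40428 and 36862 CPM at UUO-2 and 37032, 38353, 45090.5 and 41253 CPM at UUO-7, and the groups overlapped. The same was true of miR-93-5p, with 2585 to 3142 CPM and 2527 to 2852 CPM (log2 -0.03, adjusted p = 0.912), which has the seed of miR-17-5p and lies in Mcm7. Its neighbour miR-106b-5p, with the same seed, fell by 0.88 on the log2 scale (adjusted p = 0.0141), a call lost without UUO-2 replicate 3 (log2 -0.75, adjusted p = 0.0523). The seed of miR-92a-3p was shared by loci moving in opposite directions: miR-32-5p fell from 45.2 to 60.02 CPM to 11.5 to 23.2 CPM (log2 -1.53, adjusted p = 0.000149) and miR-92b-3p rose from 61.2 to 74.5 CPM to 112 to 181 CPM (log2 1.24, adjusted p = 0.00205). These seed families were picked out after their values were seen.

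The miR-181 family, known for tuning lymphocyte and myeloid signalling thresholds, had 4 of 10 tested loci higher (12 in the table) and none lower, with a median log2 of 0.22, beside 16.2% higher over all loci. The 4 loci were miR-181a-5p and miR-181b-5p on chromosomes 1 and 2, and hold only 2 distinct mature sequences. miR-181b-5p on chromosome 2 had 2284, 2265, 2583 and 2336 CPM and 4639, 3652, 5305 and 4741 CPM (log2 0.95, adjusted p = 8.61e-06). Its chromosome 1 locus, of identical mature sequence, gave 0.93, and reads of these 2 loci cannot be told apart. miR-181c-5p, encoded elsewhere with the same seed, had 320.3 to 431 CPM and 276 to 350.5 CPM (log2 -0.36, adjusted p = 0.172). miR-181d-5p had a log2 of 0.56 (1.48-fold, adjusted p = 0.0272) and passed the fold threshold without UUO-2 replicate 1 (log2 0.62) or UUO-7 replicate 4 (0.59).

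The let-7 and miR-98 family, known from growth and differentiation programmes, had calls in both directions, as had the loci at large. Of 24 tested loci (26 in the table), 4 rose, 5 fell and 15 were not called, where 16.2% of all tested loci rose and 14.4% fell, and the median log2 was 0.04. let-7c-5p on chromosome 16 (chr16:77599672-77599693, in an intron of Mir99ahg) had 4256, 4231, 4615 and 4178 CPM and 8638, 10228, 11049 and 11387 CPM. The groups did not overlap (log2 1.26, adjusted p = 3.03e-05), and its copy on chromosome 15 gave a log2 of 1.29. let-7b-5p, next to that copy, rose from 608 to 709 CPM to 1576 to 2232 CPM (log2 1.56, adjusted p = 0.000376). let-7a-5p, in contrast, had a log2 of 0.47 on chromosome 9 (adjusted p = 0.000729, 1.38-fold) and let-7i-5p of -0.13 (adjusted p = 0.338), and neither was called. With a GC trend removed, let-7a-5p (log2 0.84), let-7d-5p (0.70) and miR-98-5p (0.71) were called higher, while let-7d-3p (0.58), let-7a-1-3p (-0.33) and miR-98-3p (-0.56) lost their calls. The 5 loci that fell were all 3p arms, the lower-count strands of their hairpins, and their number was 3 without UUO-2 replicate 1 or 3 or UUO-7 replicate 4 or 5. Of these, let-7a-1-3p and let-7c-2-3p have the same mature sequence, as have the 2 copies of let-7c-5p among the 4 that rose, and their reads cannot be told apart.

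The inflammatory response list, miRNAs induced by or acting on Toll-like receptor and NF-kB signalling, had 2 of 16 tested loci higher (20 in the table), 2 lower and a median log2 of 0.33, beside 16.2% higher and 14.4% lower over all tested loci. The 2 that rose were miR-146b-5p and miR-155-5p, an activator of macrophage inflammation, with 167, 129, 96.9 and 148 CPM and 445, 255, 314 and 235 CPM (log2 1.20, adjusted p = 0.0034). The 2 that fell were miR-147-3p and miR-21a-3p (log2 -0.61, adjusted p = 0.0202). The fall of miR-21a-3p was lost without UUO-2 replicate 1 or 2 (adjusted p = 0.0702 and 0.0635) or UUO-7 replicate 2 or 4 (0.0787 and 0.0542), and the number lower was 1 without UUO-2 replicate 1 or 2 or UUO-7 replicate 4. miR-146a-5p, which has the seed of miR-146b-5p and was several times more abundant, had 35637, 44073, 31009.6 and 33199 CPM and 41539, 26744, 35004 and 33229 CPM, with overlapping groups.

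For markers of alternative activation, miR-511-3p (in an intron of Mrc1, the mannose receptor gene, chr2:14261051-14261072) had 102, 91.05, 94.98 and 81.8 CPM and 137, 194, 156 and 189.8 CPM. All UUO-7 libraries were higher (log2 0.87, adjusted p = 0.00232). With miR-511-5p (log2 0.65, adjusted p = 0.0272), 2 of the 4 loci of this list rose (16.2% over all loci) and the median log2 was 0.59. The number was 1 without any UUO-2 library or without UUO-7 replicate 3, 4 or 5, since miR-511-5p then had an adjusted p of 0.0523 to 0.162. miR-378a-3p had 3456 to 4197 CPM and 4966 to 6309 CPM, without overlap but at 1.45-fold (log2 0.54, adjusted p = 0.000729).

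Leukocyte identity miRNAs moved both ways: 4 of 8 loci rose and 2 fell (16.2% and 14.4% over all loci), with a median log2 of 0.72, and 2 rose without UUO-2 replicate 1, 2 or 3 or UUO-7 replicate 2. miR-223-3p, a myeloid miRNA, fell from 3428 to 3799.6 CPM to 2049 to 2227 CPM (log2 -0.71, adjusted p = 0.00185), and with a GC trend removed the log2 was -0.51, under the fold threshold. miR-342-3p had 1589, 1589, 1462 and 1436 CPM and 3070.0, 2163, 2787 and 2579 CPM, all UUO-7 libraries being higher (log2 0.80, adjusted p = 0.000134). The lymphocyte miRNA miR-150-5p had 527, 501, 407 and 763 CPM and 1303, 1186, 846 and 774 CPM (log2 0.90, adjusted p = 0.0432). Its call was lost without UUO-2 replicate 1, 2 or 3 (adjusted p = 0.081, 0.0785 and 0.11) or UUO-7 replicate 2 or 3 (0.103 and 0.0979), and with library size as the only scaling (0.055). The summed level of the list was 52846, 50257, 53745 and 48008 CPM at UUO-2 and 37134, 36651, 38922 and 36779.9 CPM at UUO-7, most of it miR-142a-5p. Its 3p arm, named after its values were seen because its locus overlaps that of miR-142b and the reads cannot be told apart, fell from 1564 to 2029.7 CPM to 480.3 to 851 CPM (log2 -1.52, adjusted p = 0.000209).

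The counts of the smaller families stand beside 14.4% lower over all tested loci. In the miR-23, miR-27 and miR-24 clusters, 2 of 10 tested loci fell (12 in the table, median log2 -0.17): miR-27a-3p and miR-24-2-5p, both of the chromosome 8 cluster. miR-27b-3p, with the seed of miR-27a-3p and several times its level, had 24303 to 26608 CPM and 17466 to 23216 CPM (log2 -0.38, adjusted p = 0.0689). miR-222-3p, induced by inflammatory signals, had 6507, 5886, 4133 and 5781 CPM and 2887, 3636, 2714 and 2802 CPM (log2 -0.89, adjusted p = 0.000216). It was the 1 of 4 loci of the miR-221 and miR-222 pair that fell (median -0.50), against 3 without UUO-2 replicate 3 and 2 without UUO-7 replicate 3. In the miR-15 and miR-16 family, 2 of 14 tested loci fell (18 in the table, median -0.07), or 1 without UUO-2 replicate 1, 2 or 3 or UUO-7 replicate 3, 4 or 5. miR-15a-5p went from 1859 to 2313 CPM to 914 to 1084 CPM (log2 -1.02, adjusted p = 0.000479), and miR-16-5p, with the same seed, had a log2 of -0.07 on chromosome 14 (adjusted p = 0.744). In the miR-30 family, 2 of 13 loci fell (median -0.21), or 1 without UUO-2 replicate 2 or UUO-7 replicate 2 and with DESeq2's scaling. miR-30a-5p had 13125 to 15017 CPM and 7517 to 9841 CPM (log2 -0.72, adjusted p = 0.000232).

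The counts of the other lists stand beside 16.2% higher and 14.4% lower over all tested loci. In the miR-99, miR-100 and miR-125 family, miR-125b-1-3p was the 1 of 11 tested loci that rose (12 in the table, median log2 -0.14). The Clcn5 intron cluster had 1 of 8 loci higher (10 in the table) and 2 lower, median -0.52. There miR-362-3p fell from 63.6 to 82.4 CPM to 14.7 to 33.9 CPM (log2 -1.54, adjusted p = 0.00161), while no locus was called higher without UUO-2 replicate 4 or UUO-7 replicate 3 or 5. The hypoxia miRNA miR-210 was not called in either arm (median log2 0.33), and miR-210-5p, with 33.3, 19.2, 19.2 and 20.1 CPM and 21.4, 91.4, 24.6 and 37.2 CPM (log2 0.94, adjusted p = 0.0862), was called without UUO-7 replicate 2 (adjusted p = 0.0342) or 4 (0.0417) and had a log2 of 0.24 without UUO-7 replicate 3. Of the p53 targets, 2 of 6 loci were tested and neither was called (median 0.14). None of the 5 tested loci of the Sfmbt2 intron cluster (149 in the table) was called, and its median was 0.75, although miR-467d-5p (log2 1.00, adjusted p = 0.0263) and miR-669a-5p (0.87, 0.0358) were called higher in a fit of only the 8 libraries. The most abundant, miR-467d-5p, had 4.37 to 10.7 CPM and 9.87 to 22.9 CPM with overlapping groups.

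**Figure D3:**
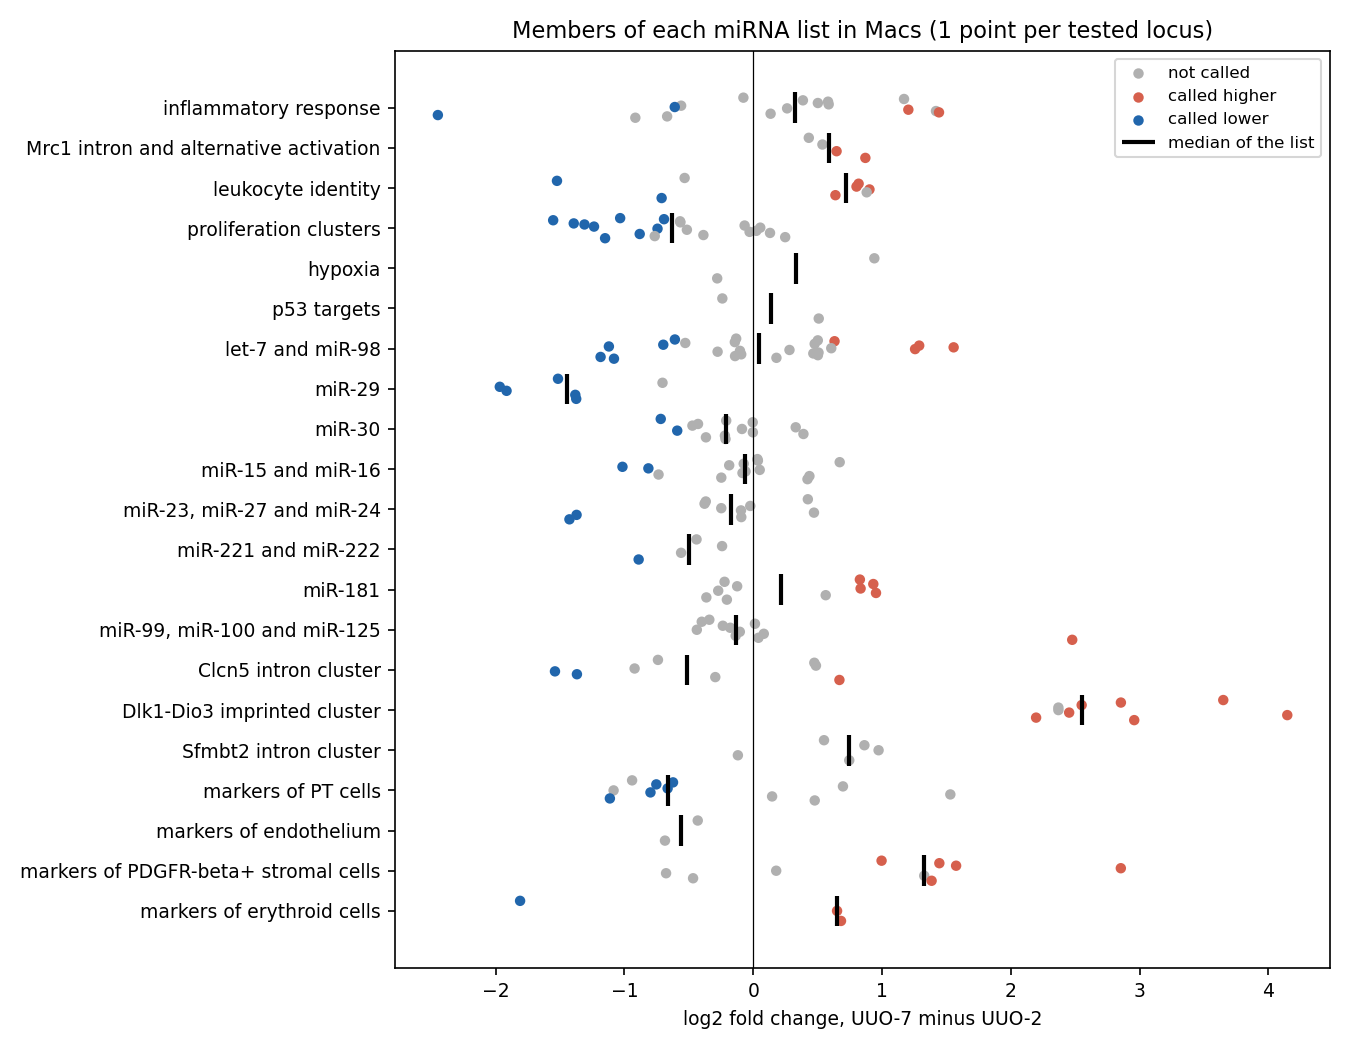
Log2 fold change from UUO-2 to UUO-7 in Macs (horizontal axis) of each tested locus of the 21 lists (vertical axis), coloured by call, with the median of each list as a bar. The miR-29 and proliferation lists lie mostly below 0 (medians -1.45 and -0.63), and the Dlk1-Dio3 list lies farthest above it (median 2.55).

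The sorted Macs also contained miRNAs that mark other kidney cells, and some of these moved between the groups. Of the PDGFR-β+ stromal markers, 9 of 12 loci were tested, 5 rose (16.2% over all loci) and none fell, with a median log2 of 1.33. All 4 loci of the Dnm3os transcript (chr1:162217844-162223459) rose, with a median of 1.51. miR-199a-3p on chromosome 1 had 213, 203, 184 and 247 CPM and 476, 630.0, 655 and 545 CPM (log2 1.45, adjusted p = 4.76e-05), and miR-199b-3p had 43.7 to 59.03 CPM and 117 to 142 CPM (log2 1.39). These 2 of the 5 loci have the same mature sequence, and their reads cannot be told apart. The calls of miR-199a-3p and miR-214-3p held in every fit, while that of miR-199a-5p (log2 1.00) was lost without UUO-2 replicate 4 (adjusted p = 0.0511). That of miR-214-5p (log2 1.58) was lost without any UUO-2 library or without UUO-7 replicate 3 or 4 (adjusted p = 0.0585 to 0.133). It was also lost with a GC trend removed (log2 1.42, adjusted p = 0.0594) and with thinned libraries (1.27, 0.125). The most abundant stromal marker, miR-143-3p, had 8234, 9234, 7355 and 8178 CPM and 5103, 4737, 7726 and 6312 CPM (log2 -0.47, adjusted p = 0.13), with overlapping groups. The log2 of miR-145a-5p was 0.18 (adjusted p = 0.765). The list had 3 loci higher without UUO-2 replicate 4 and 1 lower without UUO-7 replicate 4.

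The summed level of the stromal list, most of it miR-143-3p, was 8631, 9653, 7687 and 8615 CPM in the UUO-2 libraries and 5906, 5681, 8805 and 7168 CPM in the UUO-7 libraries, and the locus of miR-199a-5p on chromosome 9 had a median of 0 at both times. In PDGFR-β+ cells, the median of miR-214-3p was 119 and 563 CPM at the respective times, and that of miR-199a-3p 4506 and 15868 CPM. On that common scale, Macs held 3.85% and then 5.38% of the PDGFR-β+ level of miR-214-3p, and 2.65% and then 2.23% of that of miR-199a-3p. Shares of the other loci called higher fell as well. They were 1.74% and 1.21% for miR-199a-5p (chromosome 1), 2.82% and 2.21% for miR-199b-3p and 2.73% and 1.77% for miR-214-5p. Those of miR-143-5p (2.16% and 10.9%) and miR-145a-3p (1.53% and 2.85%), neither of them called, rose. For miR-143-3p, which stood at 244286 and 130347 CPM in PDGFR-β+ cells, the share was 1.89% and 2.7%, and for miR-145a-5p 1.16% and 5.09%. Macs were gated as CD45+ F4/80hi cells and PDGFR-β+ cells as CD45-negative cells. The part of stromal RNA in the rise of the Dnm3os miRNAs in Macs was not tested.

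**Figure D4:**
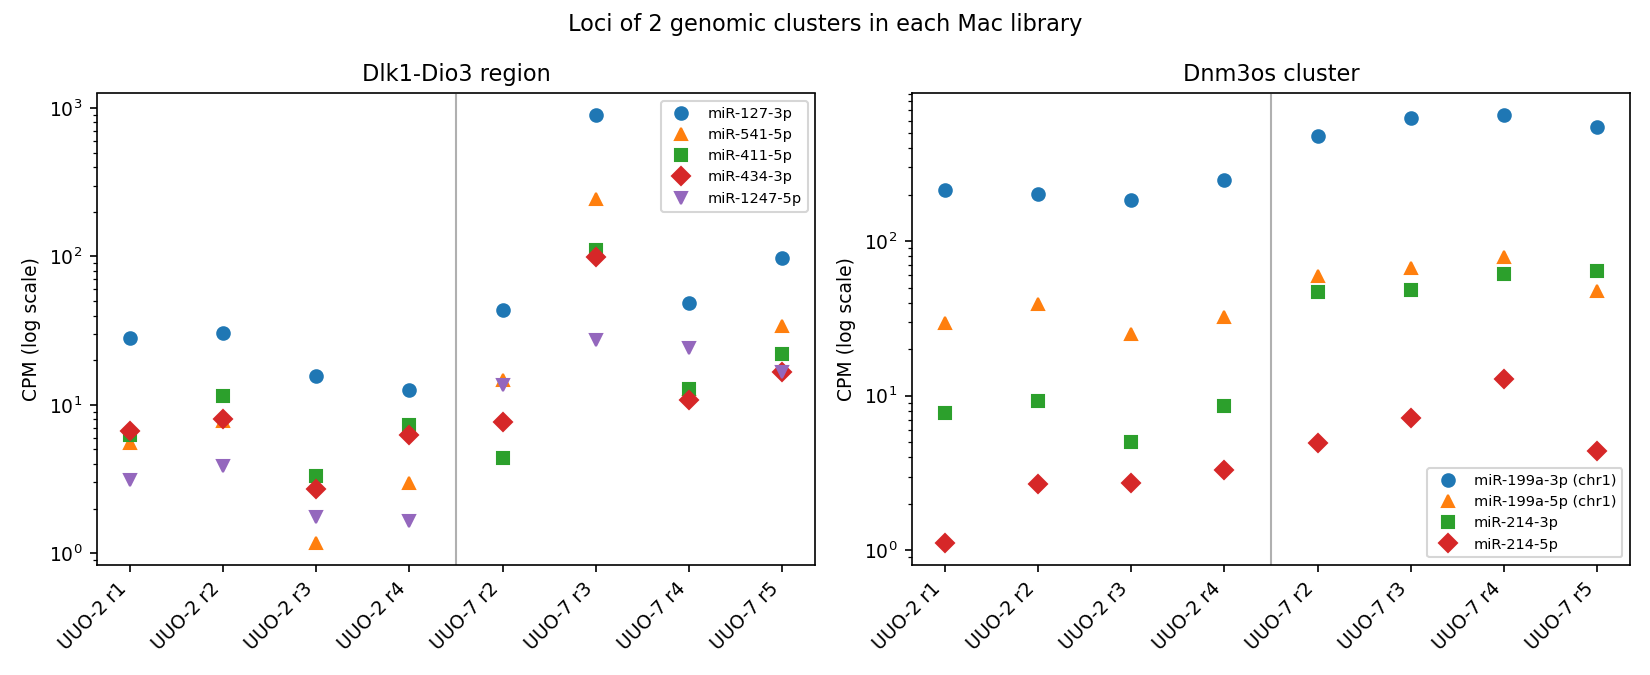
CPM (vertical axis, log scale) of loci of the Dlk1-Dio3 region (left) and of the Dnm3os cluster (right) in each of the 8 Mac libraries (horizontal axis, r is the replicate number), 1 symbol per locus. The Dnm3os loci miR-199a-3p and miR-214-3p were higher in all 4 UUO-7 libraries, whereas miR-127-3p and miR-541-5p were far higher in UUO-7 replicate 3, at 900 and 245 CPM, than in the other libraries.

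Of the PT cell and epithelial markers, 5 of 11 tested loci were called lower at UUO-7 (20 in the table; 14.4% lower over all loci), none higher and 6 not called, with a median log2 of -0.67. The most abundant, miR-192-5p, had 5317, 4095, 3657 and 4809 CPM and 2421, 2590.3, 2237 and 3364 CPM (log2 -0.75, adjusted p = 0.0115), and miR-141-3p went from 237 to 274 CPM to 90.8 to 139 CPM (log2 -1.11, adjusted p = 0.000404). Of the 6 not called, 4 had a positive log2: miR-200b-5p (1.53), miR-204-5p (0.70), miR-200c-3p (0.48) and miR-200b-3p (0.15, adjusted p = 0.689). The summed level was 6556, 5383, 4822 and 6215 CPM in the UUO-2 libraries and 3472, 3488, 3218 and 4493 CPM in the UUO-7 libraries, and miR-192-3p had a median of 0 at UUO-7. In PT cells themselves the median of miR-192-5p was 60114 and 40712 CPM, against 2419.7 and 1429 CPM in Macs on the same scale. The median of miR-194-5p (chromosome 19) fell in PT cells as well, from 1663 to 995 CPM. Medians of the other called markers rose in PT cells. They went from 487 to 649 CPM for miR-141-3p, from 663 to 814 CPM for miR-200a-3p and from 2051 to 2347 CPM for miR-429-3p. The count was 3 without UUO-2 replicate 2 or UUO-7 replicate 4, and 1 marker was called higher without UUO-7 replicate 3. With a GC trend removed, miR-200a-3p, miR-429-3p and miR-194-5p of chromosome 19 were not called. PT cells were likewise gated as CD45-negative cells, and the part of tubular RNA in this fall was not tested.

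The endothelial miR-126a was not called in either arm (2 of 2 loci tested, median log2 -0.56), although miR-126a-3p was called lower with no filter (adjusted p = 0.00526) and in a fit of only the 8 libraries (0.0134). Its sum was 1917, 2402, 1425 and 2011 CPM at UUO-2 and 1558, 1062, 1747 and 1215 CPM at UUO-7. Of the erythroid markers, 3 of 5 loci were tested, with 2 higher, 1 lower (16.2% and 14.4% over all loci) and a median of 0.65. miR-486a-3p, the most abundant, had 669, 551, 573 and 547 CPM and 865, 981, 1062 and 846 CPM (log2 0.68, adjusted p = 0.0167), lost without UUO-2 replicate 4 (adjusted p = 0.0533), where no locus of the list was called higher. The loci of miR-486a overlap those of miR-486b. miR-451a, the most typical miRNA of red cells, had 13.8, 13.1, 3.69 and 6.595 CPM and 3.84, 3.44, 0.492 and 2.57 CPM (log2 -1.81, adjusted p = 0.0345), and its fall was lost without UUO-2 replicate 1 or 2 (adjusted p = 0.108 and 0.117) or UUO-7 replicate 3, 4 or 5 (0.0547, 0.102 and 0.072). With a GC trend removed miR-451a was not called either (log2 -1.44, adjusted p = 0.0814), and with thinned libraries its log2 was -2.53. The summed level of the list was 1338, 1122, 1141 and 1132 CPM at UUO-2 and 1715, 1939, 2096 and 1715 CPM at UUO-7, and its part in other changes was not tested.

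The imprinted Dlk1-Dio3 region of chromosome 12, whose miRNAs are expressed from the maternal chromosome, had the highest median of all lists, and it rested largely on UUO-7 replicate 3. Only 9 of its 115 loci were tested, 7 were higher (16.2% over all loci) and none lower, with a median log2 of 2.55. A locus low at UUO-2 can pass the filter on low counts through the groups where it is high, and could then hardly fall. The number higher and the median are therefore given as a description and not as a result about the region. In PDGFR-β+ cells the log2 was 3.91 for miR-127-3p, 3.83 for miR-411-5p, 3.88 for miR-410-3p and 3.70 for miR-434-3p, and no difference from the Mac change was called. In ECs it was -0.15, -0.13, -0.08 and -0.42 in the same order. The Mac change was called above that in ECs for miR-127-3p (adjusted p = 0.0164), miR-541-5p (0.0135) and miR-1247-5p (0.032), and for no other tested locus of the region. For miR-127-3p and miR-541-5p this call includes UUO-7 replicate 3, on which their Mac change largely rested, and it is not taken as a result. Against PT cells only miR-1247-5p was called (adjusted p = 0.0053). miR-127-3p had 28.2, 30.3, 15.7 and 12.5 CPM at UUO-2 and 43.3, 899.8, 48.7 and 97.8 CPM at UUO-7, where the second value is replicate 3. Its log2 of 3.65 (SE 1.03, adjusted p = 0.0112) became 1.51 (adjusted p = 0.163) without that library. miR-541-5p had 5.55, 7.77, 1.17 and 2.97 CPM and 14.8, 245, 12.8 and 33.8 CPM, with a log2 of 4.15 (adjusted p = 0.00855) and of 2.21 (0.0966) without replicate 3. Without it, 1 of the 9 loci was called and the median was 1.14. The count was 4 without UUO-2 replicate 1, 2 or 4, 3 without UUO-2 replicate 3, 9 without UUO-7 replicate 2 or 4 and 5 without UUO-7 replicate 5, and the summed level was 53.9, 67.01, 28.4 and 34.95 CPM in the UUO-2 libraries and 86.1, 1447, 115 and 209 CPM in the UUO-7 libraries. The locus that kept its call is miR-1247-5p (chr12:110278094-110278115, in an exon of Dio3os), with 3.11, 3.88, 1.75 and 1.65 CPM and 13.7, 27.5, 24.1 and 16.6 CPM, all UUO-7 libraries being several times higher (log2 2.96, SE 0.433, adjusted p = 5.73e-05).

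The arms of a hairpin did not always move together, an observation made after the values were seen. Of 116 hairpins with both arms tested, 4 had both arms higher and 3 both lower, and 2 had arms called in opposite directions. Over all tested loci 16.2% rose and 14.4% fell, and whether these counts differ from those of unrelated loci was not tested. In Mir223, miR-223-5p had a log2 of 0.64 (adjusted p = 0.025) and miR-223-3p of -0.71. The rise of miR-223-5p lost its call without any of the libraries except UUO-7 replicate 3, with adjusted p of 0.0526 to 0.0914. In Mirlet7c-2, let-7c-5p rose (1.29) and let-7c-2-3p fell (-1.12, adjusted p = 0.00351), but each has the mature sequence of another locus, and neither arm can be assigned to this hairpin. The hairpin Mir125b-1 gave a rise of its 3p arm while miR-125b-5p of chromosome 9 had 545 to 694 CPM and 545 to 740.3 CPM (log2 0.04, adjusted p = 0.852), so that the log2 ratio of the 5p to the 3p arm was 6.40 ± 0.167 before and 3.97 ± 0.338 after (SD, n = 4). miR-125b-5p is also counted on chromosome 16, and its reads cannot be assigned to this hairpin.

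Base composition also differed between the classes. The median GC content of the mature sequence was 52.2% for the 57 sequences called higher, 41.9% for the 58 called lower and 50% for the 260 not called. Of 57 sequences with at least 60% GC, 22.8% were higher and 1.75% lower, and of 27 sequences under 35% GC, 3.7% were higher and 37% lower. Across 375 mature sequences, which share these libraries and are not independent replicates, the Spearman correlation of GC content with the log2 fold change was 0.29 (Pearson 0.26). The mean GC content of the counted miRNAs was 42.11% to 42.25% in the UUO-2 libraries and 42.76% to 43.55% in the UUO-7 libraries. With the trend removed from each library, 66 of the 74 higher and 55 of the 66 lower loci were called again, the 5 miR-29 loci and miR-214-3p among them. The log2 of miR-21a-5p was then -0.19 and that of miR-142a-5p -0.06, and the part of base composition in these changes was not tested.

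Set beside sham and R-UUO, the changes from day 2 to day 7 took several shapes, described here by mean ± SD of 4 libraries and without a test. miR-214-3p was at 3.93 ± 1.23 CPM in sham, 7.65 ± 1.84 after 2 days, 55.2 ± 9.01 after 7 days and 55.8 ± 9.14 after reversal. Its level after reversal was thus close to that at UUO-7, and the same held for miR-146b-5p, at 3131 ± 533, 3884 ± 402, 10561 ± 987 and 9556 ± 1485 CPM. miR-147-3p was at 5.16 ± 1.43, 119.8 ± 20.3, 21.9 ± 0.803 and 46.2 ± 16.9 CPM, highest at UUO-2. miR-17-5p was highest at UUO-2 as well, at 213 ± 18.4, 397 ± 32.9, 194 ± 20.5 and 171 ± 38.8 CPM. miR-29a-3p was lowest at UUO-7, at 4819 ± 317, 3639 ± 202, 1397 ± 204 and 2808 ± 564 CPM. let-7c-5p on chromosome 16 was lowest at UUO-2, at 7821 ± 241, 4319.9 ± 199, 10326 ± 1226 and 8639.5 ± 2939.7 CPM. miR-10a-5p was at 62166 ± 8012, 56465 ± 9487, 88375 ± 18805 and 169851 ± 22378 CPM, highest after reversal.

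**Figure D5:**
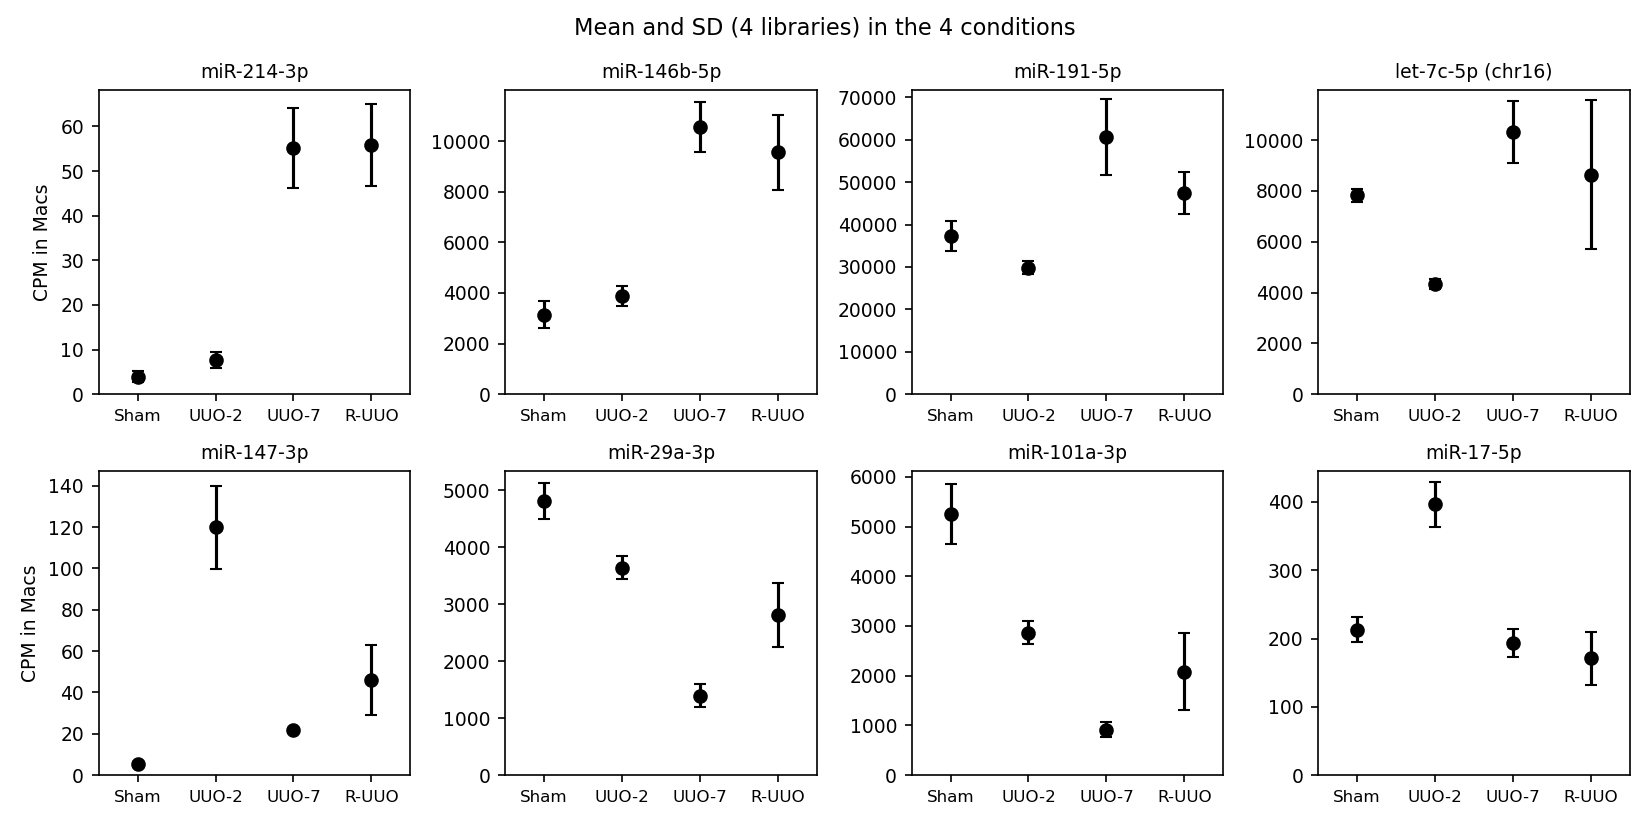
Mean CPM in Macs (vertical axes, linear, from 0) with SD bars over 4 libraries for the 4 conditions (horizontal axes), 1 panel per locus. miR-147-3p peaks at UUO-2 (120 CPM), miR-29a-3p is lowest at UUO-7 (1397 CPM), and miR-214-3p is as high in R-UUO (55.8 CPM) as at UUO-7 (55.2 CPM).

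The change from UUO-2 to UUO-7 in Macs was tested against the same change in the other populations, locus by locus, as an interaction in edgeR's quasi-likelihood model of all 63 libraries. The Mac change differed from that in PDGFR-β+ cells at 103 of 457 loci (22.5%; 41 above and 62 below), from that in PT cells at 60 (13.1%; 29 and 31) and from that in ECs at 51 (11.2%; 27 and 24). Only 3 libraries stand for PDGFR-β+ cells on day 7, since the study removed another of this group as an outlier. They are replicates 2, 4 and 5, so that UUO-7 replicate 3 has no PDGFR-β+ library. The populations of a replicate were taken to come from the same mouse, which the library titles do not state and this fit leaves out of account. With mouse as a block, 108, 73 and 58 loci were called, with 97, 60 and 46 of the former calls among them. miR-191-5p rose more in Macs than in each of the others, with a log2 of 1.03 in Macs, 0.29 in PDGFR-β+ cells, 0.09 in PT cells and -0.01 in ECs (differences 0.73, 0.94 and 1.04, adjusted p = 0.002, 0.000239 and 4.05e-05). miR-29a-3p fell more in Macs than in each, at -1.38 against -0.21, -0.35 and -0.35 (adjusted p = 0.000411, 0.00208 and 0.00191), whereas for miR-29b-3p of chromosome 1 no difference was called (0.42, 0.289 and 0.347). For miR-29c-3p the Mac change of -1.97 was below that in PT cells (-0.96, adjusted p = 0.00776) and ECs (-0.63, 0.000494), while the difference from PDGFR-β+ cells (-2.68) was not called (0.0591). For miR-184-3p the Mac change of 2.16 was below the 7.25 fitted in ECs (adjusted p = 0.00919). That value rests largely on EC replicate 3 of UUO-7. The EC libraries of UUO-7 had 12, 2175, 12 and 10 reads of this miRNA and those of UUO-2 had 1 to 5. This difference is not taken as a result. miR-147-3p, at -2.45 in Macs, was 0.55 in ECs (adjusted p = 0.000614). In PDGFR-β+ and PT cells it had 0 to 5 and 0 to 2 reads a library, about the floor, and the differences fitted there (adjusted p = 0.0118 and 0.699) are not taken as results.

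The rise of miR-146b-5p was smaller in Macs (1.44) than in PDGFR-β+ cells (2.40, adjusted p = 0.00569), and its differences from PT cells and ECs were not called (adjusted p = 0.556 and 0.245). For miR-214-3p the change in Macs (2.85) was above that in PT cells (1.11, adjusted p = 0.0342) and ECs (0.33, 0.000198), and its difference from PDGFR-β+ cells (2.21) was not called (0.318). miR-125b-1-3p gave the same result, at 2.48 in Macs against 0.68 in PT cells (adjusted p = 0.000634), 0.76 in ECs (0.000614) and 2.57 in PDGFR-β+ cells (0.885). The fall of miR-101a-3p (-1.64) was below the change in PT cells (-0.57, adjusted p = 0.00721) and ECs (-0.15, 0.000334), with no call against PDGFR-β+ cells (-0.88, 0.0558) except with mouse as a block (difference -0.72, adjusted p = 0.0381). miR-181b-5p of chromosome 2, at 0.95 in Macs, was -0.29 in PT cells (adjusted p = 0.000239), and its differences from PDGFR-β+ cells (1.15, 0.614) and ECs (0.83, 0.742) were not called.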

How the data were processed

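The deposited table holds raw counts of sRNA-Seq reads per mature miRNA locus. Per the labels, the authors trimmed reads with Trim Galore 0.4.1 and cutadapt 1.1, after FastQC, and counted them with ShortStack and Bowtie on GRCm38 with miRBase loci. The members and lists were chosen with earlier results of these data known. The 16 Mac libraries were scaled together by TMM, loci were filtered with filterByExpr, and UUO-7 was contrasted with UUO-2 by the quasi-likelihood test of edgeR 4.0.16 (R 4.3.3, limma 3.58.1), with Benjamini-Hochberg adjustment. A call needed an adjusted p under 0.05 and a fold change above 1.5. CPM are counts scaled by TMM to a common total. Levels of several cell types were put on a scale common to 63 libraries. Interactions were fitted in those libraries. A replicate number within a condition was taken to join the cell types of the same mouse, 16 mice in all, which the library titles do not state.

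Loci were named by rule: per direction the 10 calls with the smallest adjusted p whose groups do not overlap and the 5 with the largest fold, then the 10 most abundant loci and up to 4 tested members of each list. After their values were seen, 45 further loci were named: called members of lists, clusters and seed families, Dlk1-Dio3 loci and miR-142a-3p. Clusters join loci within 10000 bp. Loci sharing 0.5 or more of their positions, or with identical counts, were counted but treated as not distinct. Arm ratios used a pseudocount of 0.5, and the GC trend a lowess span of 0.7.

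Alternatives were library size only, DESeq2 1.42.0 size factors and test, no filter, a likelihood ratio test, only 8 libraries, a block on replicate number, summed loci, thinned libraries, each library left out and, for interactions, a block on mouse. Total counts were 1798374 to 4600933. Figures used Python 3.11.15, pandas 2.3.3 and matplotlib 3.10.9.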

Additional observations from a re-analysis of the deposited data

Results flagged for a closer look

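Of 286 groups of 4 Mac libraries checked, 15, all at named loci, held a library far from the other 3 relative to the whole range of the group, where chance gives about 1 in 20 groups. In UUO-2, the libraries in question were replicate 3 for miR-181b-5p of chromosome 1 (698.5 CPM, others 610.7 to 624.2), miR-106b-5p (222, others 153.4 to 162.6) and miR-30d-3p (83.13, others 94.97 to 97.36). They were replicate 4 for miR-29a-3p (3337, others 3724 to 3750), miR-27a-3p (3533, others 3949 to 4008) and miR-467c-5p (7.585, others 4.882 to 5.244), and replicate 1 for miR-210-5p (33.28, others 19.18 to 20.12) and miR-98-5p (1110, others 1022 to 1036). In UUO-7, replicate 3 was set apart at miR-101a-3p (680.1, others 983.1 to 1021) and at the Dlk1-Dio3 loci miR-541-5p (245.1, others 12.78 to 33.84), miR-127-3p (899.8, others 43.31 to 97.85), miR-411-5p (111.1, others 4.386 to 22.07) and miR-434-3p (99.95, others 7.675 to 16.55). UUO-7 replicate 2 was set apart at miR-98-3p (32.89, others 20.6 to 22.62) and replicate 5 at miR-20a-3p (5.15, others 2.193 to 2.577).

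The change from UUO-2 to UUO-7 in Macs differed from that in another cell type, by the interaction term in edgeR at an adjusted p under 0.05, for 18 of 30 combinations of 10 loci and 3 cell types. These loci were the 5 of smallest adjusted p in each direction of the Mac change, and over all tested loci the share called was 22.5% against PDGFR-β+ cells, 13.1% against PT cells and 11.2% against ECs. The Mac change is a term of the difference tested, so that this choice by itself raises the share. The log2 change in Macs minus that in PDGFR-β+ cells was -0.9586 for miR-146b-5p, -3.281 for miR-147-3p, -1.168 for miR-29a-3p and 0.7348 for miR-191-5p. Against PT cells it was 1.75 for miR-214-3p, -1.009 for miR-29c-3p, 1.239 for miR-181b-5p of chromosome 2 and -1.079 for miR-101a-3p. Against the same cells it was -1.031 for miR-29a-3p, 1.796 for miR-125b-1-3p and 0.9355 for miR-191-5p. Against ECs it was 2.521 for miR-214-3p, -1.339 for miR-29c-3p, -3.002 for miR-147-3p and -1.495 for miR-101a-3p, and then -1.029 for miR-29a-3p, 1.718 for miR-125b-1-3p and 1.04 for miR-191-5p. miR-147-3p had only 0 to 5 reads in each PDGFR-β+ library of these times. Its difference from these cells rests on counts about the floor and, although among the 18, is not taken as a result. miR-214-3p had 2 to 6 reads in the PT cell libraries of UUO-2.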

How the results depend on the processing

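The number of loci higher (74) ranged from 56 to 86 over the alternative settings and from 59 to 76 with 1 library left out, and the number lower (66) from 46 to 71 and from 50 to 66. The lowest counts, 56 and 46, came from the block on replicate number, which pairs mice that share only a number. No call took the opposite direction in any setting. For the 82 called loci among the 142 named ones, 843 of 895 values under other settings and 554 of 655 with a library left out gave the same result, and the other 52 and 101 lost the call, while 43 values of the 60 loci not called became calls. The block on mouse, the removal of a GC trend, the omission of overlapping loci and the leave-one-out values of total counts were chosen after seeing the data. With a GC trend removed, 79 loci were higher and 65 lower. The difference in total counts, -1542636.5, ranged from -1895914 to -1304836 with 1 library left out. Without UUO-2 replicate 4, whose omission gave the lower end, the exact permutation test gave p = 0.0286, the smallest that 3 against 4 libraries allow, and each other omission gave 0.0571 to 0.0857. The counts of loci that changed differently in Macs ranged from 87 to 102 against PDGFR-β+ cells (103), from 53 to 60 against PT cells (60) and from 43 to 52 against ECs (51) with 1 Mac library left out. With library size only they were 138, 41 and 41. With mouse as a block, where a replicate number within a condition was taken to mark the populations of the same mouse, they were 108, 73 and 58. Of the 30 combinations of named locus and cell type, only miR-101a-3p against PDGFR-β+ cells changed its call.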
